A study of Mus musculus with 14 samples.

Results

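The 85 nuclear genes described here encode subunits of the mitochondrial respiratory chain and of ATP synthase, together with the electron carrier cytochrome c. They were chosen by a rule on gene names, out of 49671 genes in each of 2 count tables from mouse muscle satellite cells. The rule took protein-coding symbols of the Nduf, Sdh, Uqcr, Cox4 to Cox8 and Atp5 series, plus Cyc1 and Cycs. Earlier results of these data were known when it was set. Complex I has 36 members, complex II 4, complex III 9 with Cyc1 among them, complex IV 18 and complex V 17, and Cycs stands by itself as the mobile carrier. Satellite cells, which lie beside muscle fibres and regenerate them, were sorted from resting muscle of hind limb, chest (pectoral) and triceps of C57BL/6J mice as integrin B1+, CXCR4+ and CD45-, CD31-, CD11b-, Ter119- and Sca1- cells, 1000 per library. The first dataset holds 4 libraries labelled FosGFP+ and 4 labelled FosGFP-, sorted on a GFP reporter of the transcription factor gene Fos from reporter animals aged 4 months, with 4 mice given in the series text. The second holds 3 libraries labelled FoscKO, from mice with a conditional deletion of Fos, and 3 labelled Control, aged 6 months, with 3 mice given. For the second dataset the text names the FosGFP+ gate in both groups, and neither the Cre driver nor the deleted exons are stated in the sources used here. The labels do not say which mouse each library came from, so the p-values below measure the spread between libraries, which may be technical.

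The respiratory chain sits in the inner mitochondrial membrane. Complex I takes electrons from NADH and complex II from succinate, both pass them to ubiquinone, complex III hands them to cytochrome c, and complex IV reduces oxygen. Complexes I, III and IV pump protons, and complex V, the ATP synthase, lets them flow back to make ATP. A few core subunits are encoded in mitochondrial DNA and the rest in the nucleus, where the transcription factors NRF1 and GABP bind many of their promoters. Several complex IV subunits come as pairs of isoforms, one found in most tissues and the other in heart and muscle fibres, lung or testis. Quiescent satellite cells are known for a low mitochondrial content that increases on activation.

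Counts in genes ran from 3806776 to 5983711 per library labelled FosGFP+, 2652230 to 4067543 in FosGFP-, 4797954 to 10241655 in FoscKO and 5326686 to 6930696 in Control. Of all reads, those counted in genes made up 17.0% to 23.2% in FosGFP+ against 10.3% to 14.1% in FosGFP-, and 15.9% to 30.2% in FoscKO and 16.8% to 19.0% in Control. An even background, the reads per exonic kb over 1467 smell and taste receptor genes, made up 6.40% to 10.7% of gene counts in FosGFP+, 13.0% to 19.5% in FosGFP-, 3.99% to 11.7% in FoscKO and 9.09% to 10.6% in Control. Fos itself did not follow the labels. Its level was 4586 ± 1050 CPM (counts scaled to a common library size; SD, n = 4) in libraries labelled FosGFP+ and 10921 ± 2123 CPM in FosGFP- (log2 fold change -1.25 ± 0.21 SE, edgeR adjusted p = 9.33e-04). It was 5041 ± 2982 CPM (SD, n = 3) in FoscKO and 4934 ± 174 CPM in Control (0.03 ± 0.39, adjusted p = 0.996), so groups are named by label throughout. The 12 satellite cell markers were all detected, with summed levels of 8896 to 12480 CPM in FosGFP+ and 5493 to 8027 CPM in FosGFP-. Most of that gap came from Sdc4 (5416 and 2069 CPM on average) and Vcam1 (1940 and 842 CPM), which with Itgb1 were the 3 of 12 called. These 3 were 25% of the list, beside 10.3% of all genes tested and 55.5% of genes of similar mean level that were called higher. The median log2 fold change of the list was 0.12, and -0.69 when set against genes of similar level. Endothelial and leukocyte markers were low. In the same order, the 12 endothelial markers summed to 229 to 297 CPM and 299 to 408 CPM, and the 12 leukocyte markers to 56.0 to 102 CPM and 80.8 to 151 CPM. Fibro-adipogenic progenitor markers were not low and overlapped, at 2421 to 3308 CPM and 1575 to 3538 CPM. They summed to 3368 to 6061 CPM in FoscKO and 3379 to 4676 CPM in Control. Tenocyte markers ran from 30.3 to 696 CPM in FosGFP+ and from 40.8 to 1201 CPM in FosGFP-. Smooth muscle and pericyte markers summed to 436 to 1091 CPM in FoscKO and 245 to 557 CPM in Control. The part of these differences in the results below was not tested, and in bulk samples fewer cells of a type and less RNA per cell cannot be told apart.

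Promoters show which letters the members share that the choice by name did not use. RefSeq windows (GRCm38.p6, 250 bases before to 50 after a gene's start) matched 69 of the 85 members, and a gene was counted if any of its listed starts held the motif on either strand. The NRF1 motif, shown in capitals in the first 3 sequences below, with any base allowed in its centre, was in the windows of 17 members, 24.6%, against 5.19% of 27025 genes. The GABP motif CCGGAAG was in 23.2% of members against 9.93% of all genes. The YY1 motif was in 4 members (5.80% against 0.755%), and all 4, Ndufa9, Ndufs4, Ndufs6 and Ndufs7, belong to complex I. The AP-1 motif was searched as TGANTCA, a loose form of the site to which FOS binds with JUN, with any base allowed in its centre. It was in 7 members, 10.1%, against 8.97% of all genes. None of these motifs contains another, and a match of letters is a description, not a binding site. The shares beside the members are those of all genes with a window, whatever their level in these cells. Shares for genes of matched level or base composition are not given. By complex, NRF1 letters were found in 6 of 15 matched genes of complex V (40.0%), 2 of 3 of complex II, 7 of 32 of complex I (21.9%), 1 of 5 of complex III and 1 of 13 of complex IV (7.69%). Below are the 250 bases upstream of the start for 3 genes with NRF1 letters, chosen because Sdha and Cox6a1 have the highest levels per kb of exon in complexes II and IV and Sdhd shares the motif within complex II. They are followed by 2 genes with AP-1 letters, Cox7c and Atp5c1, which lie at opposite ends of the FosGFP comparison when set against genes of the same level. Capitals mark the motif. All 5 are on the minus strand: Sdha at chr13:74350241-74350490, Sdhd at chr9:50603850-50604099, Cox6a1 at chr5:115348959-115349208, Cox7c at chr13:86046796-86047045 and Atp5c1, at the first of its 2 listed starts, at chr2:10080511-10080760.
Sdha: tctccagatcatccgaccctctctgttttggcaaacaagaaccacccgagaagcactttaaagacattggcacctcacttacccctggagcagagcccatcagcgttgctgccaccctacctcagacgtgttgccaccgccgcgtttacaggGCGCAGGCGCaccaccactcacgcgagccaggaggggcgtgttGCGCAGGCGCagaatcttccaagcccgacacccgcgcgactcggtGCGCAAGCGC
Sdhd: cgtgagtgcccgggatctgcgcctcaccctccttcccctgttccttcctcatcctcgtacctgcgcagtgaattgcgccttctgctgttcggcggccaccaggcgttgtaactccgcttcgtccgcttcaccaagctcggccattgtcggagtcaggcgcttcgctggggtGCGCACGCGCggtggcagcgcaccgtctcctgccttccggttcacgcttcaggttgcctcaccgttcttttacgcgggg
Cox6a1: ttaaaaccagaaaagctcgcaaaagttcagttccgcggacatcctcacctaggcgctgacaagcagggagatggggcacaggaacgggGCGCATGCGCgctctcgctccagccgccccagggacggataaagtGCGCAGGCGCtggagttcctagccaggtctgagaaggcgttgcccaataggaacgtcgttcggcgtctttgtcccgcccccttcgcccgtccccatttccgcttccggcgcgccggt
Cox7c: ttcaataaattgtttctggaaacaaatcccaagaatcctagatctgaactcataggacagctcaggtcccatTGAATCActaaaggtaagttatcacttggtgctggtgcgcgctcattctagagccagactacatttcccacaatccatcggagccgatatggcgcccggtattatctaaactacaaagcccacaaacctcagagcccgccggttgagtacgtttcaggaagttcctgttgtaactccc
Atp5c1: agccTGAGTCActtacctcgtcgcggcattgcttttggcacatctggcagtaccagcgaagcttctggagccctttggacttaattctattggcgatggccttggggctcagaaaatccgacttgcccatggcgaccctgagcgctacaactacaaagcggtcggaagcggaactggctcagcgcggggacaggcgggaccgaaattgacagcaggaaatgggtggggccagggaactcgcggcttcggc
The first base of the Sdha matches lay 98, 55 and 10 bases before the start, and those of Cox6a1 162 and 117 bases. The single match lay 79 bases before the start in Sdhd, 178 in Cox7c and 246 in Atp5c1. Cox7c holds TGAATCA and Atp5c1 TGAGTCA. The other listed start of Atp5c1 has NRF1 letters and no AP-1 letters in its window.

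Within the chain, levels per kb of exon spanned from the even background to far above it. In the first dataset, Atp5b, the catalytic beta subunit of ATP synthase, stood at 288 CPM per kb over the 8 libraries, and Atp5a1, the alpha subunit, at 210. The leading members elsewhere were Cox6a1 (202), Ndufa2 (102), Uqcrfs1 (82.4, the Rieske iron-sulfur protein of complex III) and Sdha (75.8, the flavoprotein of complex II). At the low end were Ndufb4 (3.65), Sdhc (11.8, a membrane anchor of complex II), Uqcrc2 (27.4), Cox4i2 (2.71), Atp5g2 (0.785) and Cycs (2.72). The even background was 0.645 to 0.932 CPM per kb in FosGFP+ and 0.953 to 1.24 in FosGFP-. Complex III had the narrowest range, with a median of 59.9 CPM per kb, against 24.3 for complex I, 48.5 for complex II, 16.7 for complex IV and 22.3 for complex V. In the second dataset, the same genes were highest and lowest in each complex except that Uqcr10 (104) led complex III, and Atp5b reached 340 CPM per kb. The length counts every annotated exon, so genes with long rarely used exons read low.

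**Figure D1:**
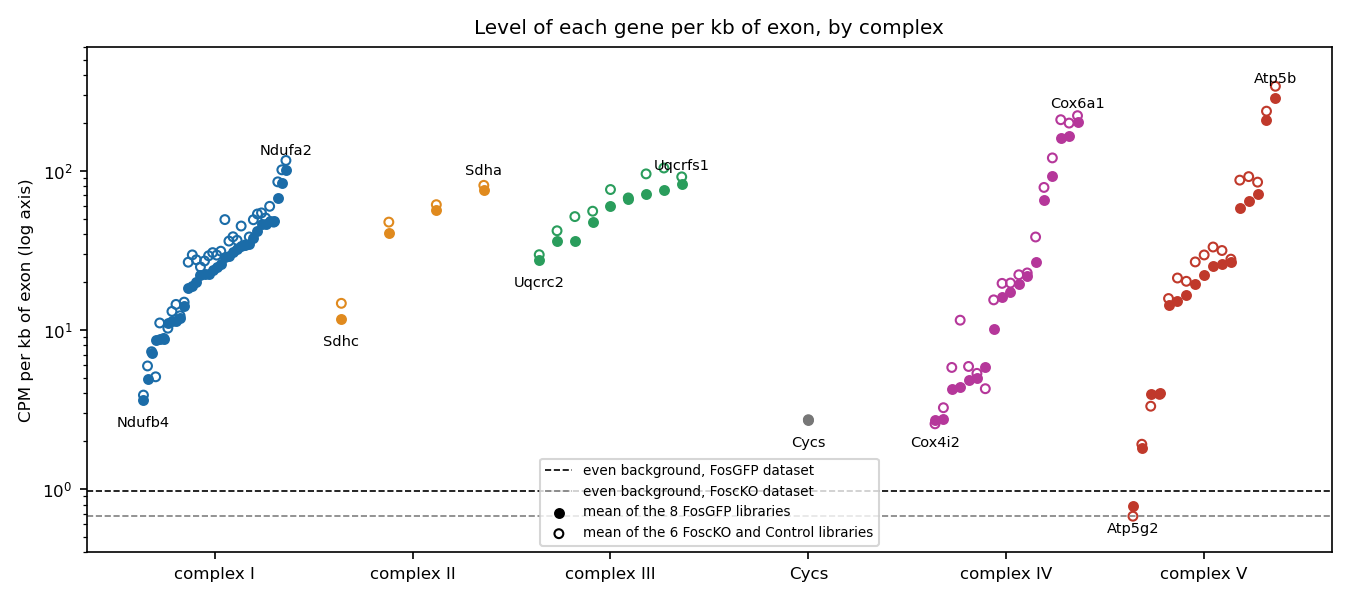
Each point is 1 gene, placed by complex in order of its level in the FosGFP dataset, with the level in CPM per kb of exon on a log axis; filled points are means over the FosGFP libraries, open points over FoscKO and Control, and dashed lines the even background. Atp5b is highest at 288 and 340 CPM per kb, and Atp5g2 lies at the background at 0.785 and 0.675.

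The 3 genes of the c subunit of ATP synthase encode the same mature protein, and their levels were far apart: Atp5g3 at 71.8 CPM per kb, Atp5g1 at 1.80 and Atp5g2 at 0.785 in the first dataset. Of their 50-base words, 38.35% in Atp5g2, 11.1% in Atp5g1 and 0% in Atp5g3 recur in other annotated genes, so Atp5g1 and Atp5g2 may be undercounted. The isoform pairs of complex IV each had a widely used member at a high level and a partner at a lower one, 2.80 to 10.5 times the even background in the first dataset and 3.81 to 22.9 times in the second. Cox4i1 stood at 167 CPM per kb and Cox4i2, the lung form, at 2.71. Cox6a1 stood at 202 and Cox6a2, the heart and muscle form, at 4.38. Cox7a2 stood at 65.3 and Cox7a1, the muscle form, at 4.28. Cox8a stood at 161, Cox8b, the muscle form, at 10.1, and Cox8c, a testis form, at 5.85. Cox6b1 stood at 92.8 and Cox6b2, a testis form, at 2.75, while Cox7b stood at 26.6 and Cox7b2 at 4.99. Cycs, cytochrome c itself, and Cox7c read low at 2.72 and 4.84 CPM per kb, and both share letters with other annotated genes: 26.2% and 22.1% of their 50-base words recur elsewhere. In all, 20 members have at least 10% of such words in other genes and 11 share at least 10% of their exons with another gene, Atp5o (47.9%), Ndufb6 (39.0%) and Ndufa13 (30.0%) among them, so their counts are uncertain. Uqcrc2 is another, with 19.8% of its exons shared and 17.6% of its words elsewhere, which bears on the ratio of Uqcrfs1 to Uqcrc2 given below.

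In the first comparison, 6 of the 82 members tested were called higher in libraries labelled FosGFP+ (edgeR, adjusted p under 0.05) and none lower. An unadjusted p under 0.05 was found for 20, a count with no share of all genes beside it. The 6 called were Uqcrfs1 and Cyc1 of complex III, Sdhb of complex II, and Atp5a1, Atp5b and Atp5g3 of complex V. No member of complexes I or IV passed. The share called, 7.32%, lay beside 10.3% of all 20698 genes tested that were called higher and 1.85% called lower. Many abundant genes rose in this comparison: 41.9% of the 4002 genes of at least 50 CPM were called higher and 1.02% lower. When the tested genes were cut into 20 equal bands by mean level, the bands that hold the members had on average 20.6% of their genes called higher, and the members' share stands beside that as a description without a test. Cox4i2, Cox7a1 and Atp5g2 did not pass the filter on low counts. DESeq2 called 15 members, all higher, and TMM from genes of at least 50 CPM called 18, all lower. The latter scaling moved the median of all genes by -0.59. The share of all genes called was not set beside either count, so neither is read as a result about the members. The count of 6 fell to 1 without FosGFP+ replicate 4, to 2 without FosGFP- replicate 2 and to 3 without FosGFP- replicate 1. With the even background subtracted, Uqcrfs1 alone was called higher and 1 complex I member was called lower. No share of all genes called stands beside these counts either.

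The median log2 fold change of the 82 members was 0.21, with -0.18 over all genes tested. It was 0.06 in complex I, 0.35 in complex II, 0.49 in complex III, 0.36 in complex IV and 0.33 in complex V. These signs depend on the scaling: 54 of the 82 lay above 0 with TMM (edgeR's trimmed mean scaling) and 58 with DESeq2 size factors, but 25 with total counts and 10 with TMM taken from genes of at least 50 CPM, which move the median of all genes by -0.40 and -0.59. Set against the median of its own level band, which all these scalings leave nearly unchanged, the median member differed by -0.07, with 34 members above their band and 48 below. By complex this difference was -0.09 for I, -0.11 for II, 0.04 for III, -0.05 for IV and -0.15 for V. The band medians themselves ran from -0.52 in the lowest band to 0.81 in the highest, so a fold change of 0.5 was low for a gene as abundant as Atp5b and high for one of 20 CPM.

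**Figure D2:**
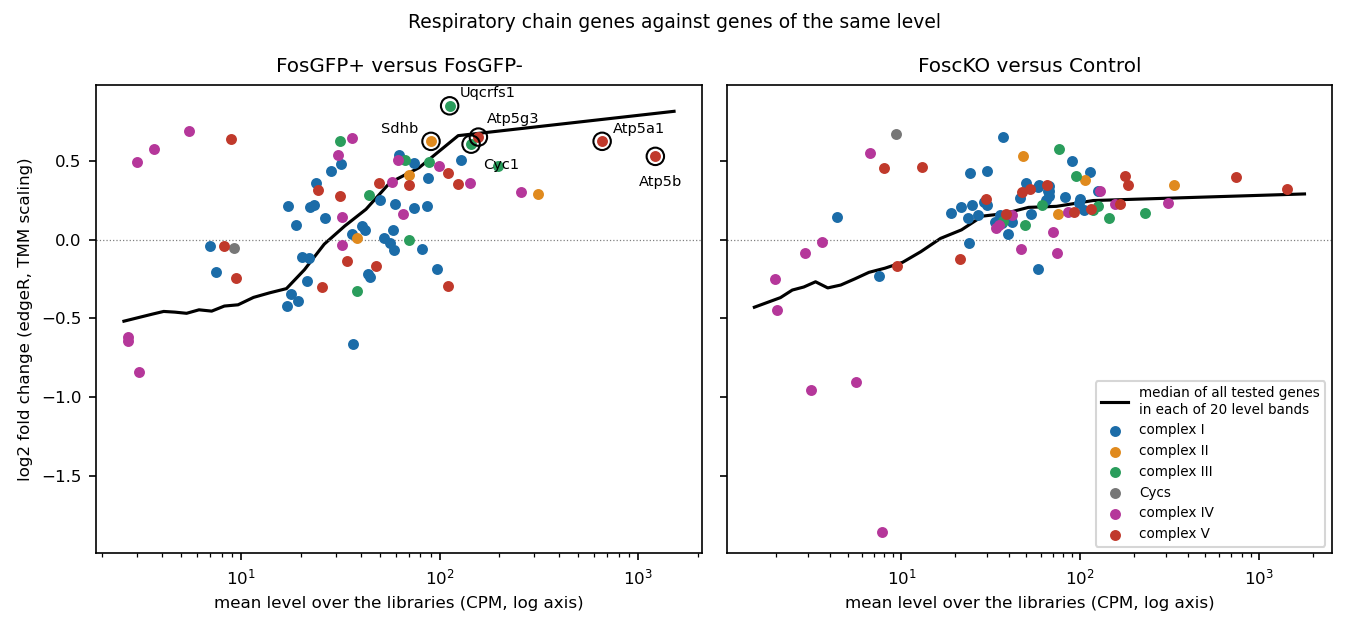
Each point is 1 tested member, coloured by complex, with its mean level in CPM on a log axis and its log2 fold change on the vertical axis, for FosGFP+ over FosGFP- (left) and FoscKO over Control (right); the line is the median of all tested genes in each of 20 level bands and rings mark called members. On the left the line climbs from -0.52 to 0.81 and the members scatter about it, and on the right no member is called.

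Complex III held the member with the largest called change. Its 2 called genes of 9 were 22.2%, beside 33.1% of genes called higher in the same bands. Uqcrfs1 (chr13:30540308-30545362, minus strand, GRCm38) was at 141, 158, 123 and 156 CPM in the libraries labelled FosGFP+ and at 82.0, 74.9, 87.1 and 76.5 CPM in FosGFP-. Every FosGFP+ library lay above every FosGFP- library, the log2 fold change was 0.85 ± 0.17 SE and the adjusted p 0.00377. Cyc1 (chr15:76343523-76346260, plus strand), the heme-bearing cytochrome c1, was at 164, 167, 185 and 179 CPM against 127, 101, 120 and 109 CPM, also without overlap (0.61 ± 0.17, adjusted p = 0.0245). The core protein Uqcrc1 was at 228 ± 20.6 CPM against 165 ± 19.2 CPM (SD, n = 4; 0.47 ± 0.17 SE, adjusted p = 0.0835) and did not pass. Its partner core protein Uqcrc2 was at 59.3, 66.8, 75.4 and 78.0 CPM and at 65.0, 76.1, 73.9 and 64.8 CPM, overlapping throughout, with a log2 fold change of -0.00 ± 0.18 SE. Subunits of one complex thus stood at different ratios in the 2 groups: the ratio of Uqcrfs1 to Uqcrc2 counts within a library, which no scaling alters, was 1.63 to 2.38 in FosGFP+ and 0.985 to 1.26 in FosGFP-. This and the other ratios below were picked after the values were seen. Relative to its band, Uqcrb, a small matrix-side subunit, stood highest in complex III (0.54; its log2 fold change of 0.63 ± 0.22 SE had an adjusted p of 0.0753), and Uqcr11 lowest (-0.52).

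In complex V the 3 called genes of 16 tested, 18.8% beside 26.4% in the same bands, included both subunits of the catalytic head. Atp5a1 was at 791, 802, 737 and 863 CPM in libraries labelled FosGFP+ and 598, 516, 469 and 488 CPM in FosGFP- (log2 fold change 0.62 ± 0.16 SE, adjusted p = 0.0162). Atp5b (chr10:128083273-128090391, plus strand) was at 1270, 1440, 1432 and 1622 CPM against 985, 927, 1100 and 984 CPM (0.53 ± 0.16, adjusted p = 0.0377). Atp5g3 (chr2:73908447-73911326, minus strand), which supplies most c subunit counts, was at 180, 182, 183 and 220 CPM against 124, 99.3, 129 and 136 CPM (0.65 ± 0.17, adjusted p = 0.0215). The groups did not overlap in any of the 3, yet all 3 lay at or below their bands, by -0.19, -0.29 and -0.01. Atp5c1, the gamma subunit that turns inside the head, went the other way in value, at 102, 118, 83.1 and 94.7 CPM against 100.2, 149, 131 and 109 CPM (-0.30 ± 0.19, adjusted p = 0.338). The groups overlapped, and relative to its band Atp5c1 had the lowest value of any member (-0.96). The ratio of Atp5b to Atp5c1 counts was 12.2 to 17.2 in FosGFP+ and 6.22 to 9.83 in FosGFP-, while the ratio of Atp5b to Atp5a1, which pair in equal numbers in the head, overlapped between groups (1.61 to 1.94 and 1.65 to 2.34). Atp5g1 stood highest against its band in complex V (1.05), at 3.45 to 15.2 CPM over the 8 libraries with groups that overlapped.

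Complex II has no subunit in mitochondrial DNA, and of its 4 genes only Sdhb (chr4:140961203-140979193, plus strand), the iron-sulfur protein, was called. It was at 102, 124, 95.0 and 118 CPM against 77.1, 70.3, 78.8 and 58.5 CPM, without overlap (log2 fold change 0.62 ± 0.18 SE, adjusted p = 0.0349). Sdha was at 344 ± 12.4 CPM and 282 ± 34.0 CPM (SD, n = 4; 0.29 ± 0.16 SE, adjusted p = 0.272), and Sdhd, a membrane anchor, at 79.7 ± 2.89 CPM and 59.8 ± 12.5 CPM (0.41 ± 0.19, adjusted p = 0.190). Neither passed, yet the groups did not overlap in either gene. Sdha ran from 334 to 361 CPM and from 233 to 312 CPM, and Sdhd from 76.9 to 83.1 CPM and from 44.8 to 75.3 CPM. The 1 of 4 called was 25.0%, beside 35.8% of genes in the same bands. Sdhc was level at 38.4 ± 6.10 CPM and 38.2 ± 5.60 CPM. The ratio of Sdhb to Sdha was 0.276 to 0.351 in FosGFP+ and 0.241 to 0.271 in FosGFP-.

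Complex I had 21 fold changes above 0 and 15 below with TMM and none called, where 15.2% of genes in the same bands were called higher. Ndufv1, which binds the flavin that accepts electrons from NADH, was at 139, 145, 151 and 164 CPM in libraries labelled FosGFP+ and 118, 126, 91.4 and 88.4 CPM in FosGFP-, without overlap (0.50 ± 0.18 SE, adjusted p = 0.0828). Ndufv3, an accessory subunit of the same module, was at 27.4, 21.5, 35.6 and 28.5 CPM against 57.5, 41.6, 43.7 and 35.8 CPM (-0.67 ± 0.23 SE, adjusted p = 0.0783). Neither passed, and in value they ran in opposite directions, so that the ratio of Ndufv1 to Ndufv3 was 4.26 to 6.76 in FosGFP+ and 2.05 to 3.02 in FosGFP-. Ndufs1, the largest iron-sulfur subunit of the electron input arm, was at 90.0 ± 22.1 CPM and 103 ± 11.6 CPM (SD, n = 4), the lowest in complex I against its band (-0.85). Ndufc1, at 18.4 ± 3.54 CPM and 15.9 ± 3.54 CPM, was the highest (0.52). Ndufb2 was at 73.7 ± 8.85 CPM and 50.7 ± 8.56 CPM (0.54 ± 0.20 SE, adjusted p = 0.0868). Ndufa4, named for complex I and also assigned to complex IV, was at 41.7 ± 5.14 CPM and 39.2 ± 2.40 CPM.

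Complex IV had 12 of 16 tested members with a fold change above 0 under TMM and none called, where 17.1% of genes in the same bands were called higher. Cox5a, a subunit on the matrix side, was at 44.3 ± 3.16 CPM against 28.2 ± 5.29 CPM (SD, n = 4; log2 fold change 0.65 ± 0.22 SE, adjusted p = 0.0632). Cox8a was at 115 ± 17.4 CPM against 83.6 ± 8.13 CPM (0.47 ± 0.18 SE, adjusted p = 0.109), and Cox7a2 at 72.4 ± 9.71 CPM against 51.0 ± 3.79 CPM (0.51 ± 0.19, adjusted p = 0.0933). In each of the 3, the libraries labelled FosGFP+ all lay above those labelled FosGFP-, and none passed. Counting both directions, 25 of the 85 members had FosGFP+ and FosGFP- values fully apart. The share of all genes, or of genes of similar level, with values apart in this way is not given. Such separation, here and for the other genes named, is therefore not read as particular to the members. Cox4i1, the most abundant member of complex IV by CPM, was at 285 ± 37.2 CPM and 231 ± 14.8 CPM and the lowest against its band (-0.51). Cox7c was the highest against its band of all members (1.14), at 3.10, 7.73, 7.11 and 9.15 CPM against 4.23, 3.45, 5.46 and 3.58 CPM, values that overlap and rest on few counts. The muscle form Cox6a2 (3.50 ± 2.13 CPM and 2.45 ± 1.19 CPM) was highest in replicate 1 of FosGFP+, at 6.43 CPM, the library where the 20 mature fibre markers also had their highest sum, 2659 CPM against 1544 to 2255 CPM in the rest of its group and 1521 to 1963 CPM in FosGFP-. Cox7a1 was likewise highest there, at 5.96 CPM. Cox8b (4.39 ± 2.93 CPM and 2.92 ± 0.689 CPM) was at 6.67 CPM there and at 6.54 CPM in replicate 3, which had the lowest fibre sum of its group, and the part of fibre RNA in these values was not tested.

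**Figure D3:**
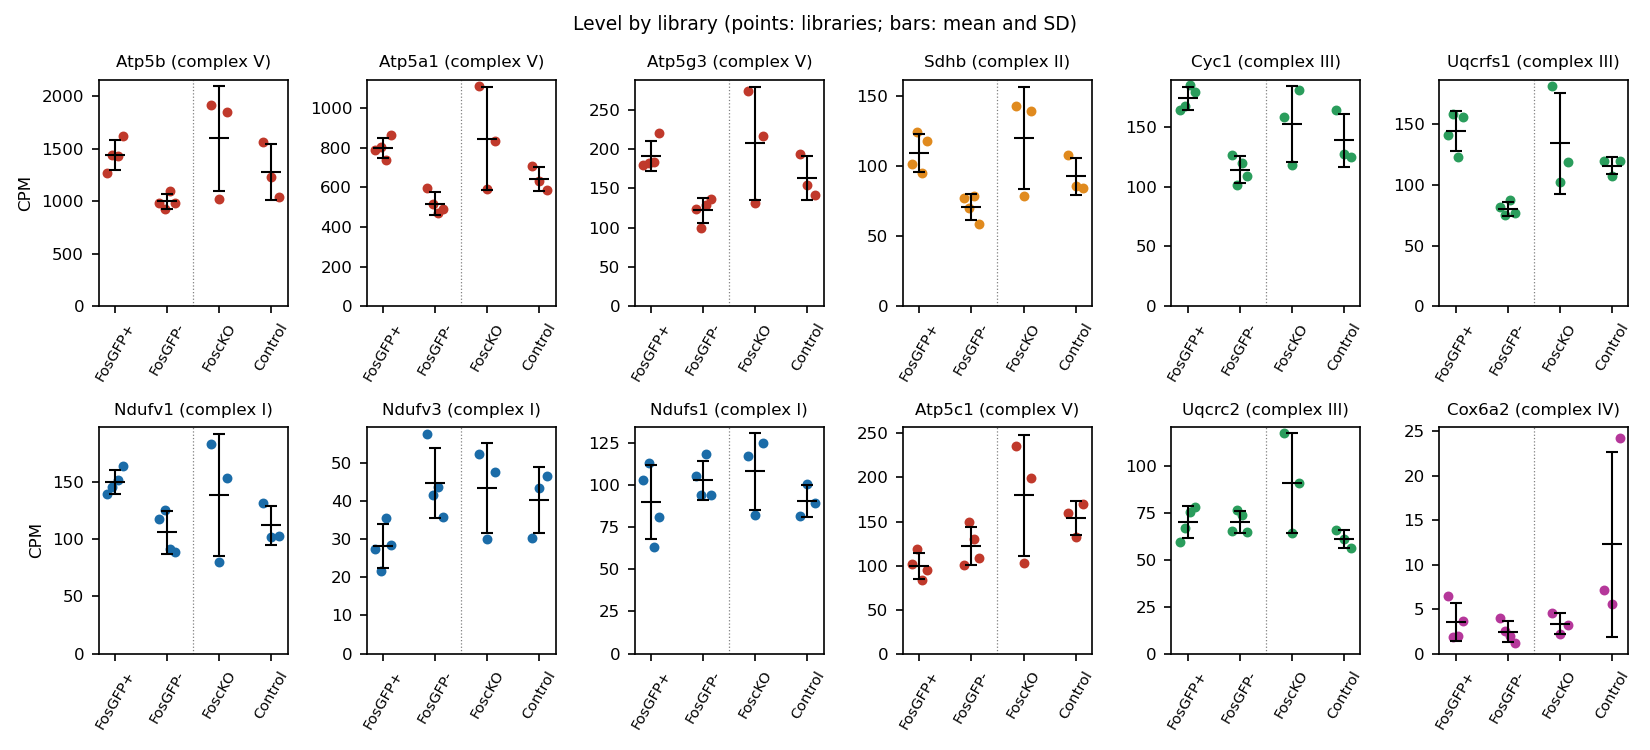
CPM of 12 members in every library (points) with the mean and SD of each group (bars), for FosGFP+, FosGFP-, FoscKO and Control. In the upper row the 6 called genes show no overlap between FosGFP+ and FosGFP-; in the lower row Ndufv3 lies lower in FosGFP+, and Cox6a2 reaches 24.3 CPM in 1 Control library.

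The shares of complexes I and V in the summed counts, which no scaling alters, also differed between the groups. The counts of complex I were 22.0% to 23.7% of the counts of all 85 genes in libraries labelled FosGFP+ (23.0% ± 0.746; SD, n = 4) and 25.6% to 27.6% in FosGFP- (27.0% ± 0.979). Complex V took 41.8% to 44.5% (43.2% ± 1.31) and 39.1% to 40.6% (40.0% ± 0.727). Neither share overlapped between the groups, while those of complex II (7.94% and 7.96%), complex III (12.7% and 11.7%) and complex IV (13.0% and 13.2%) did. With the even background taken off, the shares were 22.6% ± 0.776 and 26.4% ± 0.997 for complex I and 43.5% ± 1.35 and 40.4% ± 0.783 for complex V, again without overlap. Without Atp5b, the largest single member, complex I held 28.7% ± 0.820 against 32.8% ± 0.823, complex V 29.1% ± 0.642 against 27.1% ± 0.347, and complex III 15.9% ± 0.141 against 14.3% ± 0.901, none with overlap. These shares were computed after the values were seen and carry no test. The members' levels differ as well: the median of the level bands was 0.28 for the members of complex V and 0.14 for those of complex I, and against those bands complex V stood lower (-0.15) than complex I (-0.09). Summed with TMM scaling, all members reached 7212 ± 411 CPM in FosGFP+ and 5657 ± 226 CPM in FosGFP-. As CPM of all gene counts, without TMM, they came to 6198 ± 273 and 6352 ± 508, so the direction of the total depends on the scaling. On that scale complex I was at 1424 ± 30.3 CPM in FosGFP+ and 1717 ± 158 CPM in FosGFP- without overlap, whereas with TMM its sums, 1657 ± 72.9 and 1528 ± 72.4 CPM, overlapped.

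**Figure D4:**
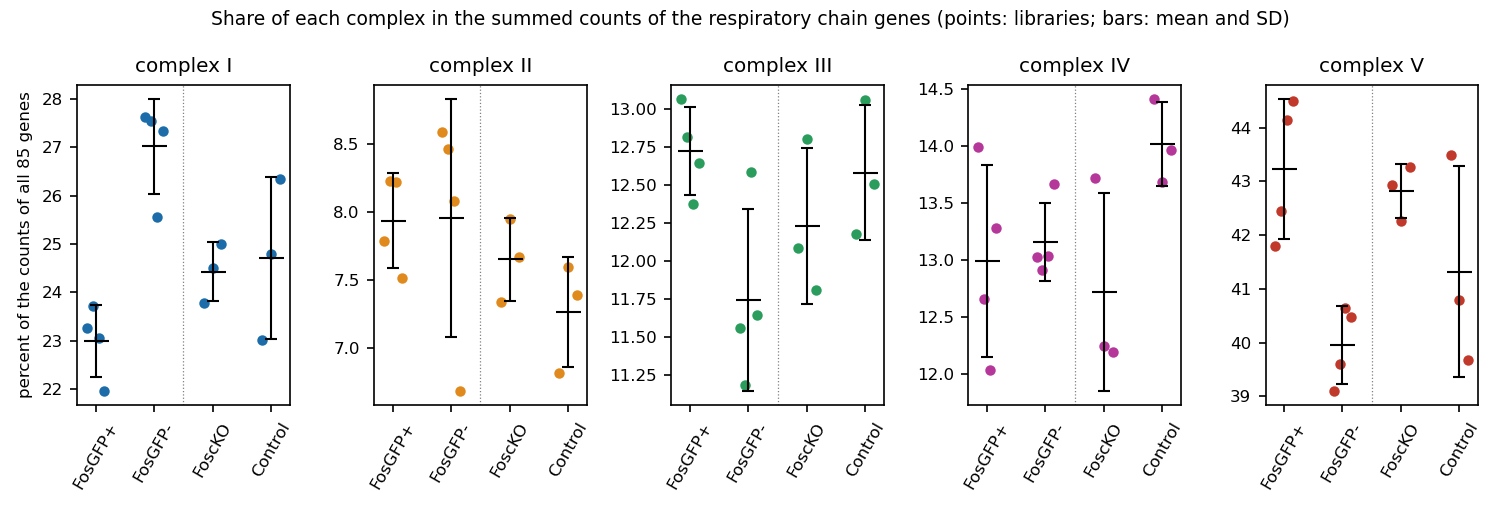
Share of each complex in the summed counts of the 85 genes, in percent, for every library (points) with the group mean and SD (bars); each panel has its own axis, which does not start at 0. Complex I lies lower and complex V higher in FosGFP+ than in FosGFP- without overlap, and the FoscKO and Control shares overlap in all 5 panels.

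The authors' deposited table for this comparison lists 3422 genes, 16 members among them, all higher in FosGFP+ once its sign, opposite to that of the edgeR fit in 100% of its genes, is turned. It holds the 6 genes above, with Uqcrfs1 at 0.92 (adjusted p = 2.09e-05), and adds Cox5a, Uqcrb, Ndufb2, Cox7a2, Ndufv1, Uqcrq, Uqcrh, Uqcrc1, Cox8a and Atp5f1.

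Regulators of mitochondrial biogenesis act on the nuclear genes of the chain or on mitochondrial DNA. Of 15 such genes tested, 6 were called higher in libraries labelled FosGFP+ and none lower (median log2 fold change 0.60). That is 40.0%, beside 10.3% of all genes tested, 41.9% of those of at least 50 CPM and 19.9% in the level bands that hold the regulators, and their summed level was 1137 to 1276 CPM against 504 to 786 CPM. Pprc1, a coactivator of the PGC-1 family, was at 340 ± 24.8 CPM and 127 ± 65.0 CPM (SD, n = 4; 1.42 ± 0.27 SE, adjusted p = 0.00273). Gabpb1, the partner of the GABP DNA-binding subunit, was at 161 ± 23.9 CPM and 66.6 ± 11.1 CPM (1.27 ± 0.19 SE, adjusted p = 5.27e-04). Tfam, which packages and transcribes mitochondrial DNA, was at 111 ± 17.7 CPM and 51.5 ± 8.04 CPM (1.11 ± 0.20, adjusted p = 0.00149). The other 3 were the mitochondrial polymerase gene Polg, the helicase gene Twnk and the transcription factor gene Tfb2m. Nrf1 (0.48 ± 0.18, adjusted p = 0.0908) and Gabpa (0.64 ± 0.23, adjusted p = 0.0850) did not pass, and Ppargc1a, the PGC-1 alpha gene, was at 17.5 ± 6.46 CPM and 28.3 ± 6.92 CPM (-0.69 ± 0.31, adjusted p = 0.170). With total counts and with TMM from genes of at least 50 CPM, 4 regulators (Gabpb1, Polg, Pprc1 and Tfam) were called higher, and Ppargc1a, in the second of them with Ppargc1b, was called lower. DESeq2 called 8 higher, Nrf1 and Gabpa among them, and none lower. The shares of all genes called under these settings are not given.

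Assembly factors build the complexes without staying in them. Of 45 tested, Tmem186 and Ttc19 were called higher and Lyrm7 and Tmem126b lower in libraries labelled FosGFP+ (median -0.10). These shares, 4.44% each way, lay beside 10.3% called higher and 1.85% called lower over all genes tested, and 4.25% and 2.23% in the assembly factors' own bands. Ttc19, a complex III factor, was at 81.7 ± 18.2 CPM and 41.0 ± 4.73 CPM (SD, n = 4; log2 fold change 0.99 ± 0.21 SE, adjusted p = 0.00510), and Lyrm7, which delivers the Rieske protein encoded by Uqcrfs1, at 5.79 ± 1.45 CPM and 12.7 ± 2.34 CPM (-1.12 ± 0.35, adjusted p = 0.0488). With TMM from genes of at least 50 CPM, which moved the median of all genes by -0.59, 13 assembly factors were called lower and none higher. DESeq2 called 4 higher and 2 lower. The shares of all genes called under these 2 settings are not given. Of the 2 tested subunits whose symbols lie outside the naming rule, Ndufab1 was not called and Usmg5, a small ATP synthase subunit, was called higher (1.21 ± 0.34 SE, adjusted p = 0.0276).

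Of the 13 mitochondrially encoded subunits, 7 could be tested, and none was called in either dataset. In the FosGFP comparison 58.2% of genes in their level bands were called higher and 1.88% lower, while in FoscKO against Control 0% of all genes were called. With TMM from genes of at least 50 CPM, mt-Nd4 was called lower in FosGFP+, and the share of all genes called under that scaling is not given. In the first dataset the median log2 fold change of the 7 was 0.21, and their median against their bands was -0.58. The genes mt-Atp6, mt-Atp8, mt-Co2, mt-Co3 and mt-Nd4l are listed at 0 in all 14 libraries. For 4 of them, 98.8% to 100% of their 50-base words also occur in other annotated genes, while mt-Atp8 has none. Reads whose alignment was not unique, 28.8% to 38.4% of all reads per library, were counted apart from the genes. Their part in these zeros was not tested, and the levels of these genes were not used.

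In the second comparison, FoscKO against Control, no member was called, and neither was any of the 21885 genes tested (edgeR, 0% in each direction). An unadjusted edgeR p under 0.05 was found for 2 of the 84 members tested, Uqcrc2 and Cox6a2, a count with no share of all genes beside it. DESeq2 called 59 genes higher and 34 lower and limma-voom 3 and 3, with no member among them. The median log2 fold change of the 84 members tested was 0.22, with -0.04 over all genes, and 70 lay above 0 with TMM but 35 with total counts and 35 with TMM from genes of at least 50 CPM. Against their level bands the median member differed by 0.05, with 48 above and 36 below: 0.07 for complex I, 0.09 for II, -0.04 for III, -0.07 for IV and 0.08 for V.

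The spread among the FoscKO libraries was larger than their distance from Control, with all members summed to 8306 ± 2467 CPM and 6871 ± 633 CPM (SD, n = 3). By library the sums were 10340, 5562 and 9015 CPM in FoscKO replicates 1, 2 and 3, and 7566, 6718 and 6328 CPM in Control. With this TMM scaling, replicate 2 lay below all Control libraries and replicates 1 and 3 above them. As CPM of all gene counts, without TMM, the members came to 7477, 6220 and 8704 against 7584, 7179 and 7117, so that replicate 1 lay within the Control range (7467 ± 1242 and 7293 ± 254). With TMM the same order held in each of complexes I to V, with complex I at 2458, 1364 and 2253 CPM against 1666 to 1741 CPM and complex V at 4440, 2351 and 3900 CPM against 2511 to 3291 CPM. Without it, replicate 1 was within the Control range for complexes I, III, IV and V (complex I 1777 CPM against 1745 to 1874 CPM, complex V 3210 CPM against 2824 to 3299 CPM), while replicate 2 was below in all 5 complexes and replicate 3 above in all but complex IV. In the same order, the share of reads in genes was 30.2%, 15.9% and 22.7%, and the even background 3.99%, 11.7% and 6.65% of gene counts, and their part in the spread was not tested. The median member less its band was 0.10, -0.25 and 0.19 in these libraries. The median of the comparison was 0.13 without replicate 2, 0.00 without replicate 1 and -0.03 without replicate 3.

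**Figure D5:**
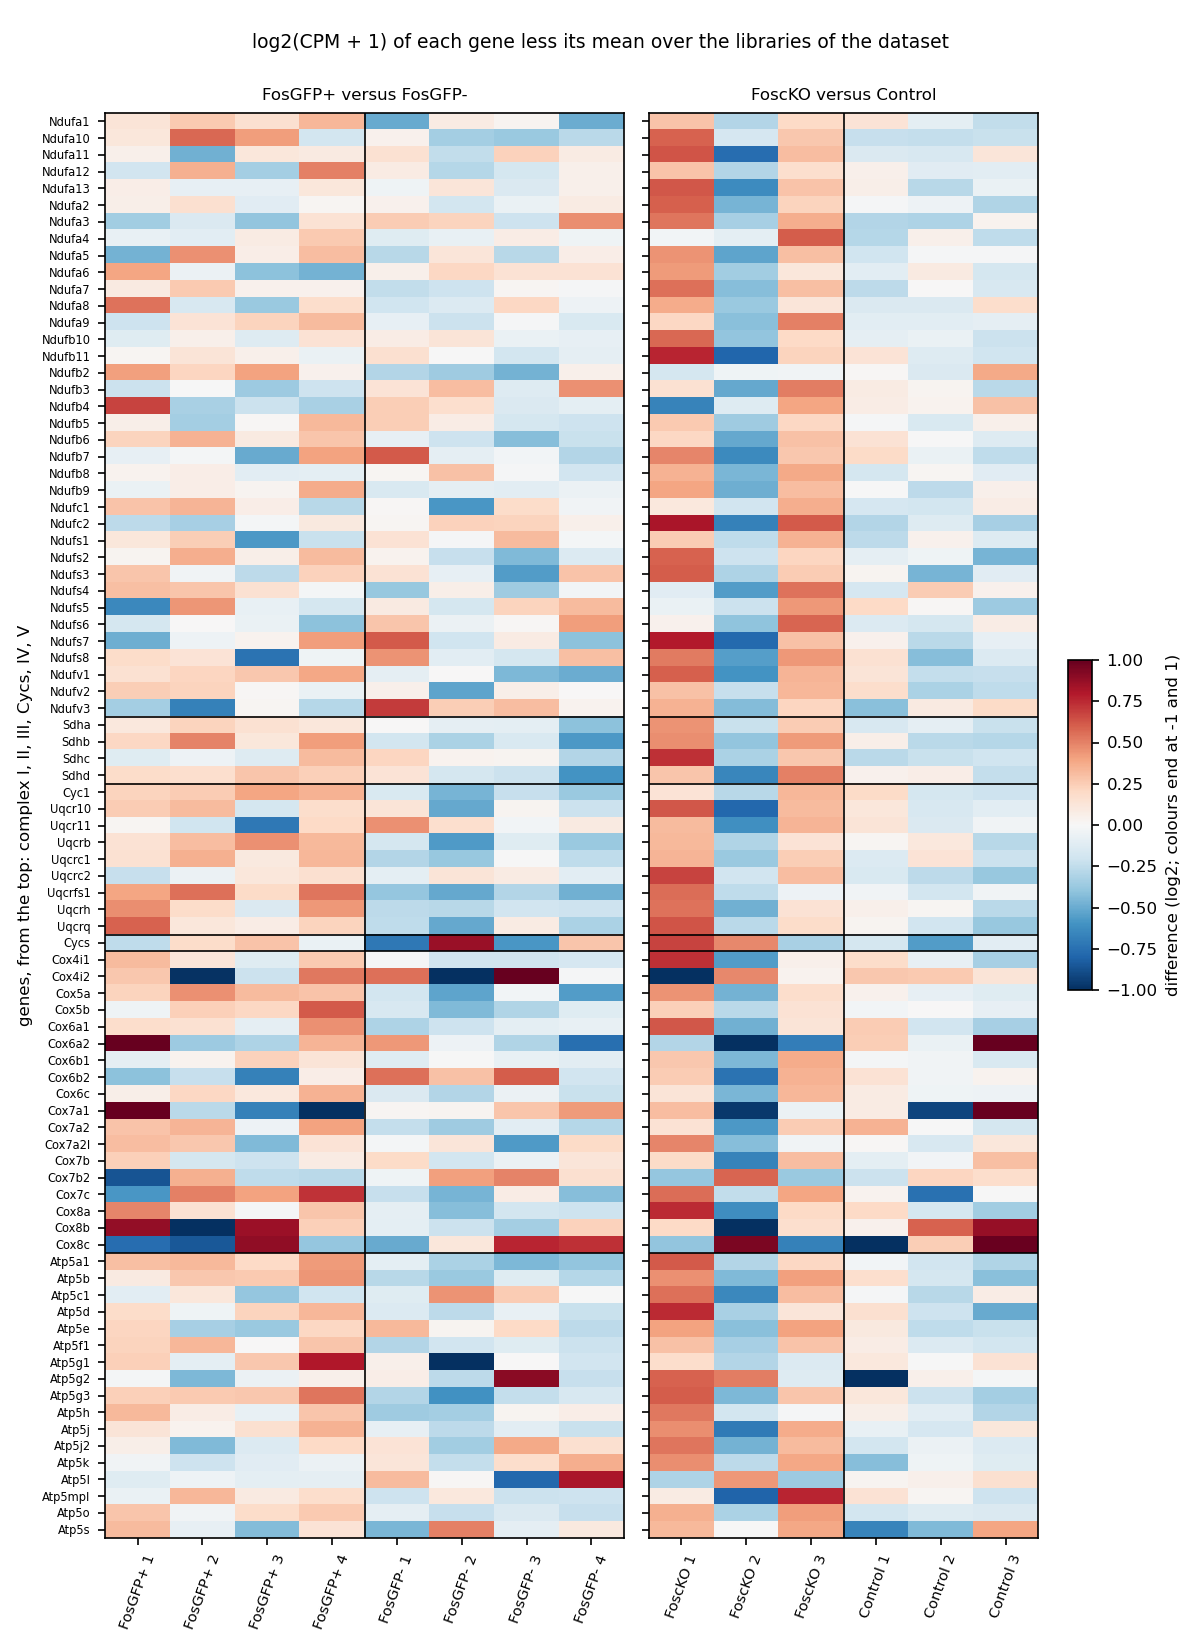
log2(CPM + 1) of each of the 85 genes less its mean over the libraries of its dataset, in colour from -1 (blue) to 1 (red), with libraries in columns and genes in rows grouped by complex. With the TMM scaling shown, FoscKO replicate 2 is blue and replicates 1 and 3 are red for most genes; their summed levels were 5562, 10340 and 9015 CPM.

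Values of single genes are given in the same order of replicates. Uqcrc2 was at 117, 63.9 and 90.8 CPM against 65.9, 61.0 and 56.0 CPM in Control, overlapping in 1 library (log2 fold change 0.57 ± 0.27 SE, edgeR adjusted p = 0.903). Uqcrfs1, called in the first comparison, was at 181, 103 and 118 CPM against 120, 108 and 120 CPM. The ratio of Uqcrfs1 to Uqcrc2 was 1.30 to 1.61 in FoscKO and 1.76 to 2.14 in Control, without overlap, whereas the ratios of Atp5b to Atp5c1 (8.12 to 10.00 and 6.16 to 9.81), Ndufv1 to Ndufv3 (2.65 to 3.51 and 2.20 to 4.35) and Sdhb to Sdha (0.279 to 0.356 and 0.278 to 0.367) overlapped. Atp5b was at 1918, 1025 and 1855 CPM against 1569, 1233 and 1043 CPM (0.32 ± 0.32 SE). Sdhb was at 143, 78.5 and 140 CPM against 108, 85.9 and 84.7 CPM (0.38 ± 0.27). Cyc1 (0.14 ± 0.26), Sdha (0.35 ± 0.26), Sdhc (0.53 ± 0.29) and Sdhd (0.16 ± 0.30) had adjusted p-values of 0.914 or more. Cycs was at 14.7, 12.7 and 6.85 CPM against 7.68, 5.67 and 8.14 CPM (0.67 ± 0.47), at low counts, and stood highest of all members against its band (0.82). Against genes of the same level, Ndufc2 (0.49), Atp5s (0.64) and Cox7c (0.76) stood highest in complexes I, V and IV, and Ndufb2 (-0.39), Atp5l (-0.18), Uqcrc1 (-0.12) and Cox6a2 (-1.68) lowest in I, V, III and IV. None of these passed the test.

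The 3 muscle fibre forms of complex IV had the most negative values. Cox6a2 was at 4.59, 2.24 and 3.25 CPM in FoscKO and 7.12, 5.54 and 24.3 CPM in Control, without overlap (log2 fold change -1.86 ± 0.62 SE, edgeR adjusted p = 0.711). Cox8b was at 5.54, 0.559 and 5.41 CPM against 4.87, 7.56 and 9.45 CPM (-0.91 ± 0.69), and Cox7a1 at 3.24, 0.746 and 2.28 CPM against 2.62, 0.810 and 8.96 CPM (-0.95 ± 0.84). All 3 were highest in Control replicate 3. The 20 mature fibre markers summed to 4471 CPM in that library, against 2351 and 3136 CPM in the other Control libraries and 1161 to 2671 CPM in FoscKO, and their part in these values was not tested. The widely used partners showed no such gap: Cox6a1 was at 168 ± 62.4 CPM and 144 ± 31.8 CPM (SD, n = 3), Cox8a at 143 ± 63.9 CPM and 116 ± 23.2 CPM and Cox7a2 at 72.0 ± 20.6 CPM and 76.5 ± 14.6 CPM.

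The shares of the complexes overlapped between FoscKO and Control. Complex I held 24.4% ± 0.616 and 24.7% ± 1.67 of the members' counts (SD, n = 3), complex V 42.8% ± 0.509 and 41.3% ± 1.96, and complex IV 12.7% ± 0.868 and 14.0% ± 0.367. None of the regulators, assembly factors or subunits outside the rule was called (edgeR). DESeq2 called 1 assembly factor, Coa5, higher in FoscKO. Polg was at 189 ± 30.5 CPM and 117 ± 21.2 CPM (0.69 ± 0.25 SE, adjusted p = 0.783), Gabpb1 at 121 ± 16.1 CPM and 78.4 ± 3.02 CPM (0.63 ± 0.23, adjusted p = 0.783), Tfam at 89.8 ± 33.9 CPM and 60.6 ± 3.71 CPM (0.57 ± 0.29, adjusted p = 0.914) and Pprc1 at 226 ± 36.1 CPM and 213 ± 11.5 CPM (0.09 ± 0.24, adjusted p = 0.968). The authors' deposited table for this comparison, which lists 69 genes, holds no member.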

How the data were processed

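RNA was amplified with SMART-Seq v4, which keeps no strand, and sequenced on an Illumina HiSeq, per the labels' protocols. The tools STAR 2.5.0c and HTSeq 0.6.1 and the build GRCm38 are named in the submitters' processing notes, beside limma and DESeq2 1.20.0. The authors deposited raw counts per Ensembl gene in a table for each dataset. They also deposited tables of their own comparisons, with log2 fold changes and p-values, used as deposited with the sign turned. The 14 columns of per-library values in those tables were left out. The lines of the count tables that name no gene stayed out of library sizes and tests, which leaves 10.3% to 30.2% of reads. Symbols and exons came from GENCODE M21, with 49412 of 49671 gene identifiers matched.

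Each dataset was fitted apart with edgeR 4.0.16 (R 4.3.3): filterByExpr, TMM, quasi-likelihood F-test, two-sided, no covariate, Benjamini-Hochberg over all genes, called under 0.05. CPM use TMM library sizes. SE was the log2 fold change over the root of F. The script was tested on simulated data. Level bands are 20 equal groups of tested genes by mean log CPM. Genes named are the called members, the extremes per complex in level and against the band, the isoform pairs, Cyc1, Cycs, the Sdh genes, Fos and 5 regulators; others were chosen after their values were seen. Members and lists were chosen with earlier results of these data known. Alternatives were other scalings and filters, DESeq2 1.42.0, limma-voom 3.58.1, the replicate number as a block, an even background subtracted, other bands and each library left out. Counts set the precision: members near background rest on few reads.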

Additional observations from a re-analysis of the deposited data

Results flagged for a closer look

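In 5 of 90 groups of 4 libraries tested, 1 library stood apart from the rest by Dixon's test, where chance gives about 1 in 20. Atp5g3 reached 220 CPM in FosGFP+ replicate 4, against 180 to 183 CPM in the other FosGFP+ libraries. Sdhc reached 47.5 CPM in the same library, against 34.7 to 36.8 CPM. Ndufb4 reached 11.4 CPM in FosGFP+ replicate 1, against 5.22 to 5.69 CPM, and Cox8c 5.12 CPM in FosGFP+ replicate 3, against 0.836 to 1.52 CPM, both at low counts. Complex I summed to 1636 CPM in FosGFP- replicate 1, against 1476 to 1501 CPM in the rest of its group.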

How the results depend on the processing

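In the FosGFP comparison, 6 members were called, all higher. The count was 15 with DESeq2, 18 with TMM from genes of at least 50 CPM (all lower), 4 with total counts (all lower) and 2 with the even background subtracted (1 higher, 1 lower). The shares of all genes called under these settings are not given beside these counts. Leaving out each library gave 1 to 8 members, with 1 without FosGFP+ replicate 4, 2 without FosGFP- replicate 2 and 3 without FosGFP- replicate 1. The shares of all genes called in those fits are not given either, so the falls are not read as particular to the members. Over 17 alternatives, Uqcrfs1 lost its call with total counts and with TMM from genes of at least 50 CPM only (log2 fold change 0.26 to 0.97, adjusted p 2.06e-05 to 0.186). The other 5 were lost in 4 to 9 alternatives, and Atp5b turned to -0.062 with TMM from genes of at least 50 CPM. The median member less its band was -0.18 with the background subtracted, and -0.12 to -0.03 with each library left out. In FoscKO against Control, 0 members were called under every alternative, and the median less its band ran from -0.03 to 0.13. The replicate block gave 4 members called in the first comparison and 0 in the second, again with no share of all genes beside the counts. Same-numbered libraries did not deviate together (correlations -0.0063 to 0.021 over 4 pairs and -0.027 to 0.15 over 3, and not every library was closest to its own number), so the numbers were not read as pairs. Without Atp5b, the FosGFP difference in share moved from 0.98 to 1.63 percentage points for complex III and from 3.27 to 1.99 for complex V. Depth limits the isoforms near background, and FoscKO replicate 2 has the fewest counts in its dataset.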
